A study of Mus musculus with 148 samples.

Results

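C1qa, C1qb and C1qc encode the A, B and C chains of complement C1q. They are 3 of the 52634 gene rows that were counted in single immune cells of mouse lungs, lung metastases and primary breast tumors, and they were chosen by name. C1q is the recognition part of the first complement component: its 3 kinds of chain assemble into a molecule that binds antibody complexes, C-reactive protein and dying cells, and it then activates the proteases C1r and C1s, which start the classical pathway. Unlike most complement proteins, which the liver secretes, C1q is made largely by macrophages and some dendritic cells (DC), and transcripts of its chains are widely used as markers of tissue macrophages and of macrophages in tumors. Over 23425 annotated immune cells, 40741 unique molecular identifiers (UMI, tags that count each captured mRNA once) came from these genes: 10415 (25.6%) from C1qa, 21364 (52.4%) from C1qb and 8962 (22%) from C1qc. Macrophages were 7.65% of the cells and held 90.6% of the C1q UMIs, and the label Mac_Cd81 alone, 409 cells or 1.75% of all, held 78.0%. Primary tumors gave 28782 of the 40741 C1q UMIs, 26523 of them from 160 Mac_Cd81 cells. These cells had a median of 8661 UMIs, and the shares above mostly describe these tumors. By tissue, Mac_Cd81 held from 8.65% of the C1q UMIs in the margins and 38.6% in the cores of metastases to 92.2% in primary tumors.

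The cells came from 27 mice of the strain C57/b6 PA-GFP, whose cells carry a green fluorescent protein that light switches on. Except for the control mice (3, lungs labelled normal), they were females that had received EO771-tdTomato cells, 1 mouse breast cancer line marked with a red protein, in a mammary gland at 8 weeks of age. Tissue was taken either while the tumor was in place (primary tumor, 4 mice, and Pre-MET lung, the lung of 3 of them) or after the tumor had been cut out 3 weeks after injection. The second arm held relapse-free lung (6 mice with no metastasis, some plates of it sorted for GFP), distal normal tissue (14 mice, lung away from lesions), metastasis (13 mice), and the photoactivated metastasis core (13 mice) and invasive margin (7 mice), from which GFP-positive cells were sorted. All other plates were sorted for cells with CD45, a marker of immune cells. Counts were summed per mouse, tissue and cell label wherever at least 10 cells were present, and levels are given as CPM, the UMIs of a gene per 1000000 UMIs of the sum. This left 40 sums of macrophages, 62 of monocytes and 36 of DCs. Separate mice are the replicates, but tissues of 1 mouse share the animal, and all tumors descend from 1 cell line.

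The genes lie next to each other on the minus strand of chromosome 4 (mm10, GENCODE vM21 annotation of GRCm38), all as protein-coding genes. C1qb spans 136880129 to 136886187, C1qc spans 136889804 to 136893065 and C1qa spans 136895917 to 136898803. The cluster covers 18675 bases, with 3616 bases between C1qb and C1qc and 2851 between C1qc and C1qa, so no pair overlaps. Promoters of 2 of the 3 genes matched the RefSeq table of GRCm38.p6; that of C1qa did not. They are printed because the chains varied together from sample to sample, from 250 bases before to 50 bases after the start, 5′ to 3′ on the minus strand, at chr4:136886151-136886450 for C1qb and chr4:136892865-136893164 for C1qc. The start is that of RefSeq, which for C1qc lies inside the GENCODE span given above, so most of its window overlaps that span. Capitals mark matches on either strand to GAGGAA, the core bound by the myeloid factor PU.1, and TGCTGA, one arm of a Maf site.
C1qb: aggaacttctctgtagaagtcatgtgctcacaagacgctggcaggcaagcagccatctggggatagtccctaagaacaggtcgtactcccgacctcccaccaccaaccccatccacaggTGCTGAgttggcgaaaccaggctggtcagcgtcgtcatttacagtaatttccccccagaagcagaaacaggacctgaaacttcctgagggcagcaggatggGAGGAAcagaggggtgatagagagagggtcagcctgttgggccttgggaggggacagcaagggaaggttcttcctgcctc
C1qc: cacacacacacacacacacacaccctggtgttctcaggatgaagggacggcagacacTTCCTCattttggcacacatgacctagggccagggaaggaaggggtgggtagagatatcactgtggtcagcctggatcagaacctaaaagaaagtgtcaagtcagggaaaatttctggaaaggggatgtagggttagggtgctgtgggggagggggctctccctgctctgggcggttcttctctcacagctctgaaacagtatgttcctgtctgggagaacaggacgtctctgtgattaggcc
In the C1qb promoter, GAGGAA lay at -30 and TGCTGA at -131 relative to the RefSeq start, both on the coding strand and without overlap, and in the C1qc promoter GAGGAA lay at -193 on the opposite strand. GAGGAA was present in 28.3% and TGCTGA in 19.5% of all 32851 promoters of this length, so a match is common. The AP-1 motif TGANTCA, found in 7.81% of promoters, was not found in either window.

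The 63 combinations of mouse and tissue held between 48306 and 2745794 UMIs, on 148 plates of 12 sequencing batches, with a median of 1133 UMIs per cell. Labels are those of the authors' own annotation, and were checked against markers: 10 alveolar macrophage markers summed to 19648 CPM in Mac_Cd9, the label for alveolar macrophages, and to between 241 and 1673 CPM in the other macrophage labels. Of the markers of regulatory macrophages, Trem2 (575 against 188 CPM), Gpnmb (2521 against 223) and Cd63 (1324 against 378) were higher in Mac_Gpnmb than in Mac_Isg20, whereas Spp1 was lower (2619 against 4675). Of 592 wells left without a cell, 4 held a C1q UMI. Lymphocytes, which are not known to make C1q, served as a background and had on average 6.27 CPM of C1qa, 17.9 of C1qb and 4.01 of C1qc in the samples that also had a macrophage sum. Macrophages exceeded the lymphocytes of their own sample in 40 of 40 sums for C1qa and C1qb and in 39 of 40 for C1qc, whereas monocytes did so in 30 of 62 sums for C1qa (25 more had 0 in both), 45 for C1qb and 36 for C1qc. DCs did so in 10 of 36 sums for C1qa (18 more had 0 in both), 22 for C1qb and 12 for C1qc.

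Averaged over the sums of all tissues, C1q was highest in Mac_Cd81, lower in Mac_Gpnmb and Mac_Isg20 and near 0 in Mac_Cd9. The labels were made by clustering these same cells, and C1q may have helped to set them, so the differences between labels are a description and were not tested. In Mac_Cd81, the mean of 9 sums was 2505 ± 1770 CPM (SD) for C1qa, 5943 ± 2289 for C1qb and 1918 ± 1347 for C1qc. C1qa ranged from 719.6 to 4519 CPM in these sums, and C1qb never fell below 3344 CPM. Mac_Gpnmb followed with 619 ± 666 CPM of C1qa, 1557 ± 1001 of C1qb and 762 ± 833 of C1qc (n = 14), and Mac_Isg20 with 268 ± 156, 1308 ± 652 and 321 ± 253 CPM (n = 15). Of the Mac_Cd81 sums, 4 were of primary tumors, a tissue with no sum of Mac_Gpnmb or Mac_Isg20. In cores alone, mean C1qa, C1qb and C1qc were 893, 4552 and 564 CPM in Mac_Cd81 (n = 3). They were 942, 1932 and 1212 CPM in Mac_Gpnmb (n = 3) and 233, 1543 and 301 CPM in Mac_Isg20 (n = 7). In cores the Mac_Gpnmb means were thus above those of Mac_Cd81 in C1qa and C1qc, but only through mouse 31 (2372 and 3022 CPM). The other Mac_Gpnmb cores had 0 and 453 CPM of C1qa and 62.8 and 553 CPM of C1qc. Pooled over all core cells the order turned, with 1530 and 1337 CPM in Mac_Cd81 against 576 and 810 CPM in Mac_Gpnmb. In metastasis Mac_Cd81 (n = 2) had the highest mean of each chain. Over all sums, the ranges of Mac_Gpnmb and Mac_Isg20 overlapped for each chain, and those of Mac_Cd81 and Mac_Gpnmb overlapped for C1qa and C1qc. Mac_Cd9 stood at the bottom. In 11 sums with 351 cells it showed 0 C1qa UMIs, 3 of C1qb and 2 of C1qc, and over all 439 cells of the label C1qa was 0 of 1108893 UMIs, which allows a level of up to 2.71 CPM by counting error alone. Alveolar macrophages were thus a macrophage label in which C1q was not detectable at this depth above the level in lymphocytes.

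Among monocytes, Mon_Thbs1 had the highest mean of C1qb, 405 ± 479 CPM (n = 25), followed by Mon_MHC-II with 203 ± 407 (n = 23), Mon_Ace with 64.0 ± 127 (n = 32) and Mon_Fn1 with 50.2 ± 126 (n = 54). Each SD was as large as the mean or larger, and neighbours in this order overlapped. Without the 1 metastasis sum at 1986 CPM (mouse 30), the mean of Mon_MHC-II was 122 CPM. C1qa was lower throughout, at 64.6 CPM in Mon_Thbs1 and 3.43 CPM in Mon_Fn1 (2.21 without its highest sum), where 44 of 54 sums held no C1qa UMI. Of the DC labels, cDC2 had 34.2 ± 71.3 CPM of C1qa, 194 ± 257 of C1qb and 94.1 ± 148 of C1qc (n = 16), close to Mon_MHC-II in C1qa and C1qb but not in C1qc, which was 32.5 CPM there. The C1qa mean of cDC2 was 21.6 CPM without the primary tumor of mouse 38. In cDC1, C1qb averaged 154 ± 218 CPM, or 70.1 without the margin of mouse 17, while C1qc was 0 in all 5 sums. Only 1 C1qb and 2 C1qc UMIs were counted in 73 plasmacytoid DCs.

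**Figure D1:**
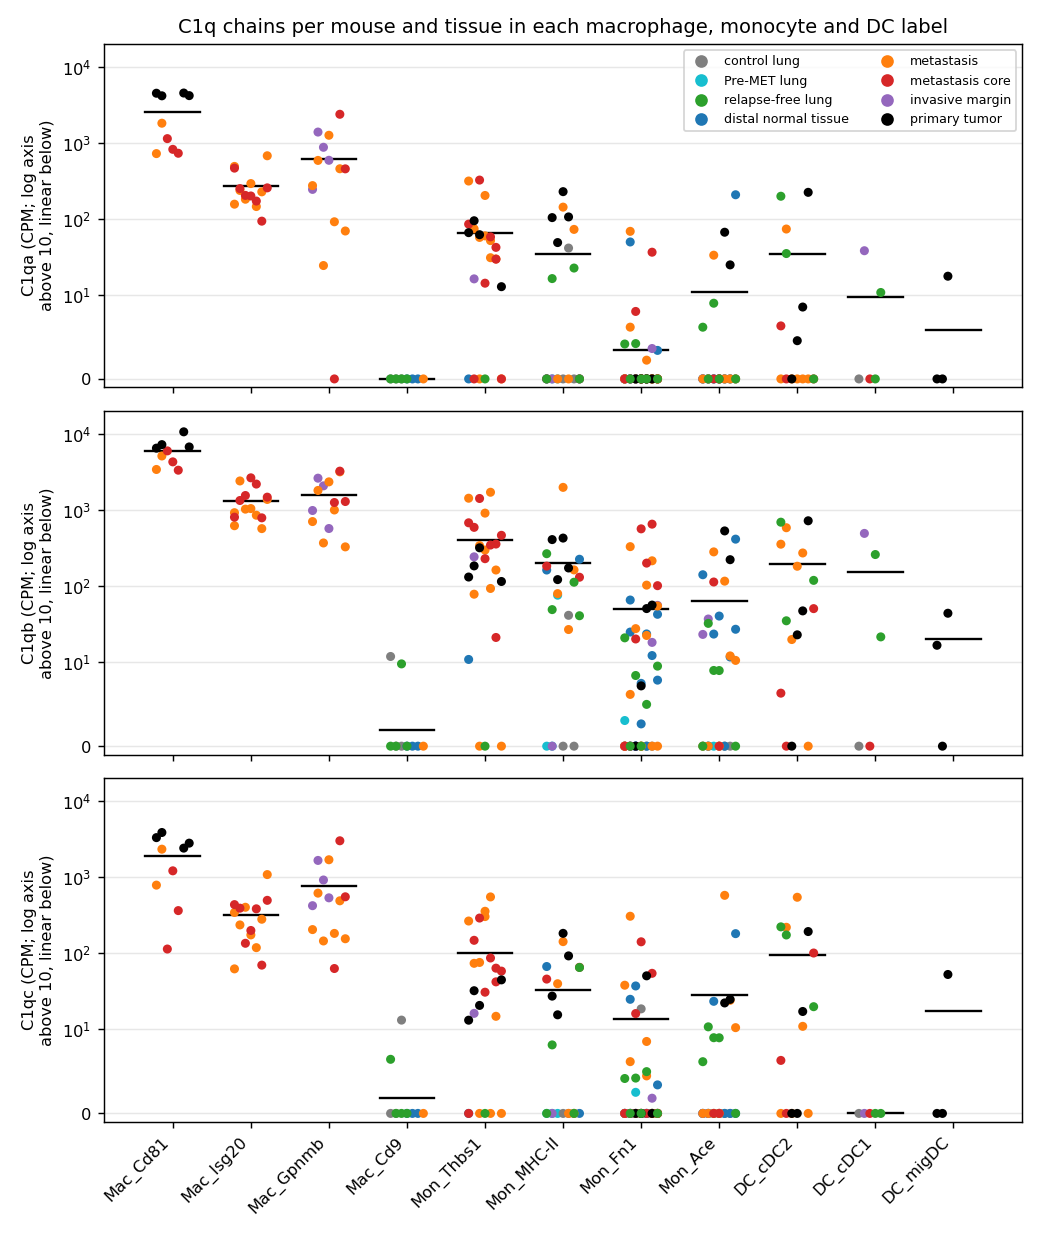
CPM of each C1q chain in every sum of 10 or more cells (points, 1 mouse and tissue each), by macrophage, monocyte and DC label. The 9 sums of Mac_Cd81 lie above 700 CPM for C1qa, whereas the 11 sums of Mac_Cd9 lie at 0.

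Counted per cell, at least 1 chain was detected in 380 of 409 Mac_Cd81 cells (92.9%, exact 95% interval 90.0 to 95.2%), in 47.4% of Mac_Gpnmb and in 36.6% of Mac_Isg20 cells. It was detected in 8 of 439 Mac_Cd9 cells (1.82%), each with 1 C1q UMI. The labels differ in depth, with median UMIs per cell from 1334 in Mac_Isg20 to 2327 in Mac_Cd81, so each cell was also thinned to 500 UMIs. The shares then became 89.2% in Mac_Cd81, 35.9% in Mac_Gpnmb, 27.9% in Mac_Isg20 and 0.683% in Mac_Cd9. Thinned shares were 9.74% in Mon_Thbs1, 6.74% in Mon_MHC-II and 5.01% in cDC2, against 0.952% in NK_Ncr1 cells and up to 3.40% in regulatory T cells (T_Treg), which serve as the background (median depths of 986.5 and 1495.5 UMIs before thinning). Mon_Fn1 (1.51%) and Mon_Ace (1.82%) lay within the range of lymphocytes when cells of all tissues were pooled. By tissue this did not hold throughout, since pooled C1qb was 126 CPM in Mon_Fn1 of cores (counting interval 94.9 to 164) and 268 CPM in Mon_Ace of primary tumors (184 to 376), where the lymphocytes averaged 18.8 and 52.5 CPM. Intervals and floors cover counting error only.

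All 3 chains were found together in 252 of 409 Mac_Cd81 cells (61.6%), in 21.6% of Mac_Gpnmb cells, in 10.1% of Mac_Isg20 cells and in no Mac_Cd9 cell. The median Mac_Cd81 cell held 22 C1q UMIs and the highest 695, while the medians of Mac_Gpnmb and Mac_Isg20 were 0 and their highest cells held 231 and 358. C1q was therefore unevenly spread inside these labels. The top 10% of cells by C1q held 51.0% of the C1q UMIs of Mac_Cd81, 62.9% of those of Mac_Gpnmb and 74.5% of those of Mac_Isg20. After thinning, the shares were 26.5%, 56.6% and 65.6%, so in Mac_Cd81 much of the unevenness went with depth, while in the other labels a minority of cells still carried most of it.

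**Figure D2:**
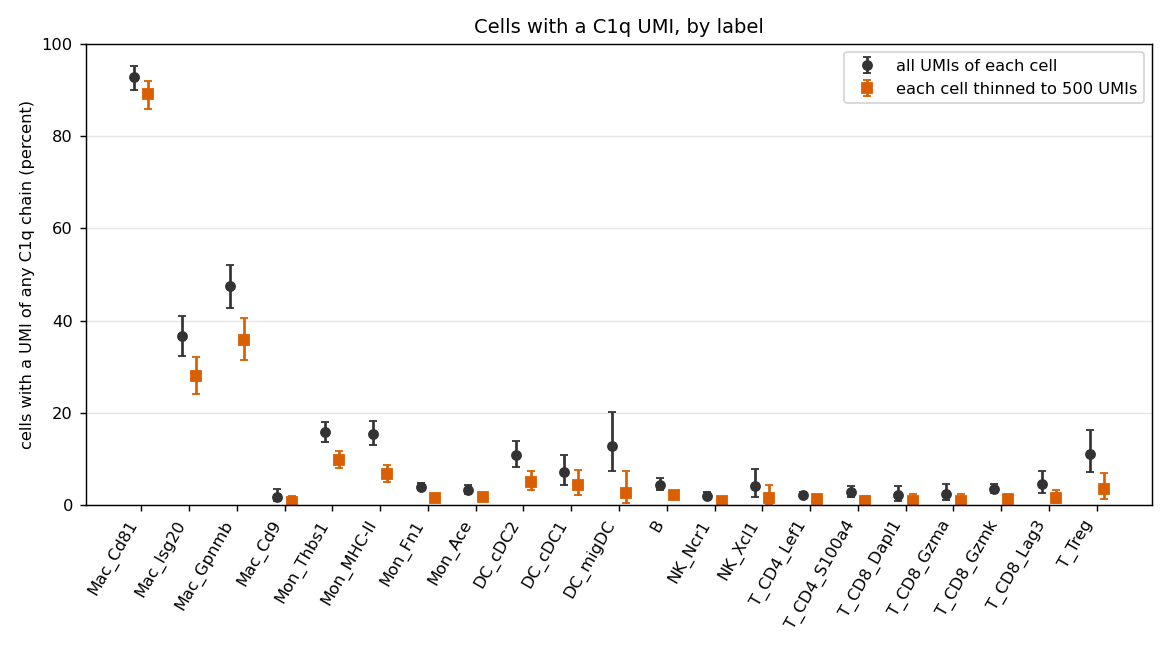
Percent of cells with at least 1 C1q UMI by label, before and after thinning every cell to 500 UMIs. Mac_Cd81 stays at 89.2% after thinning, whereas Mac_Cd9 falls to 0.683%, below the lymphocyte labels.

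Which macrophages carried the C1q UMIs differed between tissues. In control lung, Mac_Cd81 cells were 12 of 172 macrophages (6.98%) and held 98.5% of macrophage C1q, and 93.0% of the macrophages were Mac_Cd9. In relapse-free lung, 29 of 175 macrophages were Mac_Cd81 and held 96.9%. In metastasis cores, Mac_Isg20 was 56.6% of macrophages and held 31.8% of the C1q UMIs, against 46.2% in Mac_Cd81, which was 19.0% of macrophages. In invasive margins, Mac_Gpnmb was 80% of macrophages and held 87.6% of the C1q. In primary tumors, Mac_Cd81 was 160 of 194 macrophages (82.5%) and held 97.8%. Pre-MET lungs had only 10 macrophages in all, 9 of them Mac_Cd9, so no Pre-MET macrophage sum was formed.

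Within Mac_Cd81, pooled over mice, C1qb was high in every tissue with 10 or more such cells, at 4564 CPM in control lung, 6434 in relapse-free lung, 6184 in distal normal tissue, 5491 in metastasis, 4643 in core, 3286 in margin and 7036 in primary tumor. C1qa varied more, from 836 CPM in margin and 957 in control lung to 4301 in primary tumor. In Mac_Gpnmb, pooled C1qa was 1207 CPM in distal tissue (19 cells), 705 in margin, 576 in core and 316 in metastasis. With each mouse weighted equally the order of core and margin turned, since C1qa averaged 942 CPM in 3 cores, which ran from 0 to 2372 CPM, and 771 CPM in 4 margins. In Mac_Isg20, C1qa was 248 CPM in core, 263 in metastasis and 1121 in primary tumor, the last from 26 cells.

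Macrophages of primary tumors and of metastasis cores were compared to ask how the tumor site and the metastatic site differ. C1qa was at 3828, 3878, 4264 and 3892 CPM in the primary tumors of mice 8, 9, 10 and 38, and in the 10 cores it ran from 124 to 2481 CPM with a median of 430.4. No core reached the lowest primary tumor. C1qb was at 9055, 6299, 6207 and 6787 CPM in the same tumors and between 1058 and 4135 CPM in cores (median 2102), again with no overlap. C1qc was at 2043, 2621, 3182 and 3626 CPM in the tumors and between 162 and 3453 CPM in cores (median 439.7), where the core of mouse 31 reached into the range of the tumors. The share of all genes without overlap between these groups was not counted. By edgeR's quasi-likelihood test with Benjamini-Hochberg adjustment over all genes, all 3 chains were higher in primary tumors, by 2.66 ± 0.50 on the log2 scale (SE) for C1qa (adjusted p = 0.0020), 1.59 ± 0.31 for C1qb (adjusted p = 0.00257) and 1.87 ± 0.53 for C1qc (adjusted p = 0.0432). Of 2162 genes tested, 1.67% were called higher in primary tumors and 2.87% higher in cores. The call of C1qc was lost without mouse 9, 10 or 38 (adjusted p from 0.0726 to 0.139), with a minimum of 20 cells (0.0738) and with cells of 1000 or more UMIs (0.106).

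Sequencing batch went along with this contrast, since 3 of the 4 primary tumors were sequenced in batch SB132, which held no core. In the shared batch SB128, the primary tumor of mouse 8 had 3828 CPM of C1qa, 9055 of C1qb and 2043 of C1qc, and the cores of mice 36 and 37 had on average 704 CPM, 1946 CPM and 808 CPM. A fit with the batch as a term, chosen after the levels were seen to move with it, gave log2 differences of 2.27, 2.10 and 1.22 and called none of the 3 (adjusted p = 0.195, 0.195 and 0.52). The sort gate went along too, since primary tumor plates were sorted for CD45 and core plates for photoactivated cells, so gate and tissue cannot be told apart. Makeup moved as well, with Mac_Cd81 at 82.5% of macrophages in primary tumors and 19.0% in cores. A sum over all macrophages does not tell more cells of a label from a higher level within it, so Mac_Cd81 was also compared alone.

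**Figure D3:**
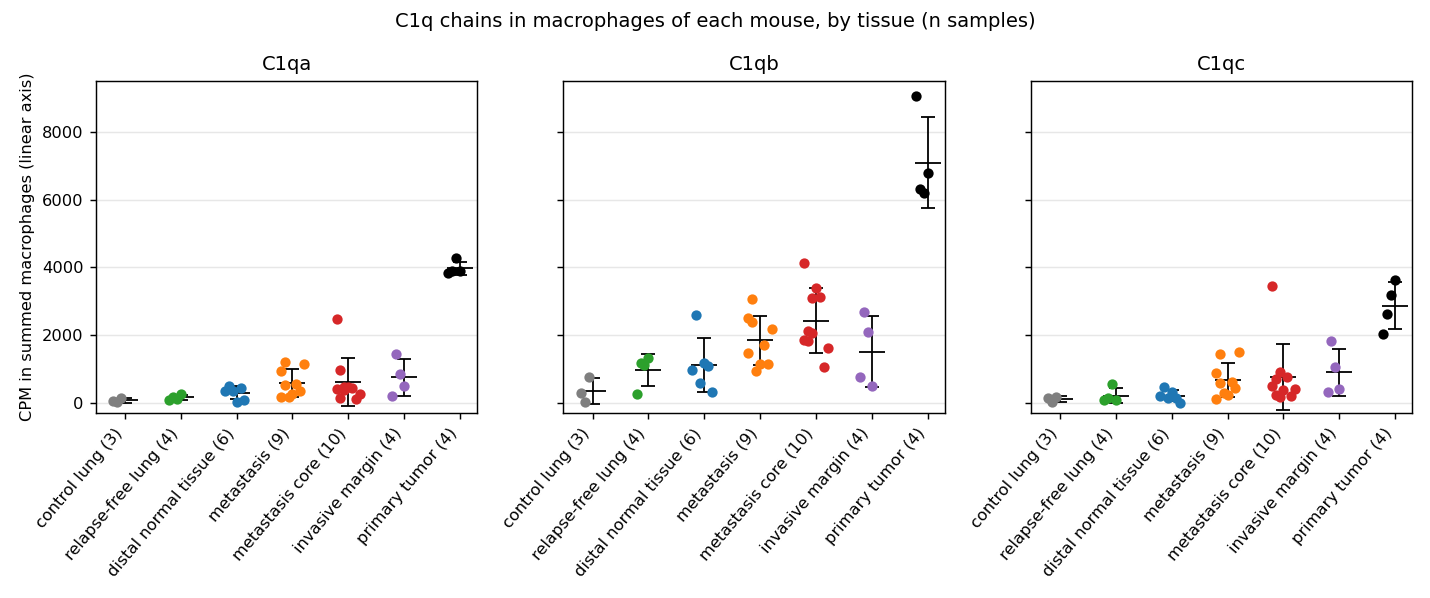
CPM of each chain in summed macrophages of each mouse (points), with mean and SD (bars) by tissue, on a linear axis. The 4 primary tumors lie at 3828 CPM or more for C1qa and at 6207 CPM or more for C1qb, beyond all samples of the other tissues.

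Within Mac_Cd81 alone, the difference between primary tumor and core was also present. C1qa was at 4519, 4177, 4491 and 4153 CPM in the primary tumors of mice 8, 9, 10 and 38, and at 1133, 819 and 727 CPM in the cores of mice 24, 26 and 30. C1qb was at 10708, 6769, 6525 and 7262 CPM against 6007, 4305 and 3344 CPM. C1qc was at 2419, 2813, 3326 and 3884 CPM against 113, 1215 and 364 CPM. The core of mouse 24 held 1 C1qc UMI, at the floor, that of mouse 30 held 5, and 46 came from mouse 26, without which the log2 difference in C1qc was 4.40. The groups did not overlap for any chain, but the share of all genes that separate them in this way was not counted. By edgeR the log2 differences were 2.63 ± 0.35 (adjusted p = 0.000287), 1.14 ± 0.34 (adjusted p = 0.0442) and 2.46 ± 0.50 (adjusted p = 0.00662), so 3 of 3 chains were called where 5.63% of 1563 genes were called higher in primary tumors and 2.62% higher in cores, and where the median gene was at 0.31. The cores alone would not have brought C1qc past the filter on low counts, so its call adds little to the values. C1qb lost its call when mouse 8, 10 or 38 or the core of mouse 30 was left out (adjusted p up to 0.171), and with sums of 5 or more cells C1qb and C1qc were no longer called.

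These Mac_Cd81 groups share no sequencing batch, so tissue and batch cannot be told apart in them. The cells also differed in depth, with a median of 4640 to 10407 UMIs per cell in the primary tumors and 839 to 1445 in the cores. Pooled by batch, C1qa in Mac_Cd81 was 775 CPM in SB118, 761 in SB123 and 896 in SB112, but 3664 in SB124, 3017 in SB128 and 4290 in SB132. Among cores alone, it was 4321 CPM in SB124, from 9 cells, and 3472 CPM in SB128, from 6 cells. These core cells entered no Mac_Cd81 sum because no mouse had 10 of them.

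Macrophages of distal normal tissue and metastasis were compared to ask what differs near lesions. C1qa ran from 35.3 to 509.5 CPM in distal tissue (median 349, n = 6) and from 163 to 1213 CPM in metastasis (median 527, n = 9). C1qb ran from 314 to 2604 CPM (median 1023) against 928 to 3063 CPM (median 1719), and C1qc from 0 to 453 CPM (median 174) against 123 to 1509 CPM (median 569.7). The groups overlapped for each chain. C1qc was lower in distal tissue by edgeR, with a log2 difference of -1.86 ± 0.58 (adjusted p = 0.0385), and C1qa (-1.23 ± 0.54, adjusted p = 0.176) and C1qb (-0.92 ± 0.38, adjusted p = 0.143) were not called. Of the 6 distal sums, 2 were at the floor for C1qc, with 2 UMIs in mouse 26 and 0 in mouse 33. The distal sums alone would not have brought C1qc past the filter on low counts, so its call adds little to the values. Of 1289 genes, 2.64% were called higher in distal tissue and 6.9% higher in metastasis, and the median gene was at -0.15. With the mouse as a replicate block, which pairs the 5 mice that gave both tissues, C1qc was at -0.84 (adjusted p = 0.472) and no chain was called. Nor was any called with the batch as a term (C1qc at -1.16, adjusted p = 0.279) or with size factors by relative log expression (C1qc at -1.81, adjusted p = 0.0539). In batch SB118, 4 distal samples averaged 266 CPM of C1qc and 3 metastases 322 CPM, and in SB124 the distal tissue of mouse 33 had 0 CPM against a mean of 1133 CPM in 2 metastases. Alveolar macrophages, in which C1q was near 0, went along with this contrast: Mac_Cd9 was 59.7% of distal macrophages and 8.83% of those in metastasis, and the summed alveolar markers ran from 5548 to 18735 CPM in distal sums and from 913 to 5464 CPM in metastasis sums, without overlap. Their part in the difference was not tested. In the Mac_Cd81 cells of distal tissue (22 cells), pooled C1qa was 2207 CPM, but 78 of its 116 UMIs came from 4 cells in batch SB128, and the 13 cells of SB118 had 1379.6 CPM. In those of metastasis (96 cells) it was 1934 CPM.

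Between core and margin, macrophages differed in no chain beyond the spread. The 4 margins (mice 17, 32, 33 and 36) had 189, 1454, 856 and 495 CPM of C1qa, 755, 2688, 2098 and 507 CPM of C1qb and 312, 1810, 1067 and 410.1 CPM of C1qc. These lie inside or below the range of the cores given above. Within each batch that held both, however, the core mean was the higher one for each chain, from 1 or 2 samples a side, and the core was also higher for each chain in both mice (17 and 36) that gave both tissues. C1qa was at 418 against 189 CPM in SB112, 2481 against 1155 in SB124 and 704 against 495 in SB128. C1qb was at 1844 against 755, 4135 against 2393 and 1946 against 507 CPM, and C1qc at 480.4 against 312, 3453 against 1439 and 808 against 410.1 CPM, in the same order. The log2 differences, core over margin, were -0.33 ± 0.61, 0.56 ± 0.43 and -0.27 ± 0.63, with adjusted p of 0.924, 0.715 and 0.941 by edgeR. In this comparison 0% of 1743 genes were called, with 178 at an unadjusted p under 0.05 and 27 called by DESeq2, none of them a chain. In Mac_Gpnmb, the label that fills the margins, C1qa was at 0, 2372 and 453 CPM in the cores of mice 30, 31 and 36 and at 243, 1383, 872 and 587 CPM in the 4 margins. Log2 differences were 0.27 ± 0.91, 0.27 ± 0.61 and 0.43 ± 0.83 (adjusted p = 0.997 for each), and edgeR called 0% of 1026 genes, with 19 at an unadjusted p under 0.05 and 0 called by DESeq2. The core of mouse 31 set the sign here, since without it C1qa was at -1.45.

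Macrophages of control and relapse-free lung, 93.0% and 80% of which were Mac_Cd9, were compared next. In control lungs of mice 1, 2 and 3, C1qa was at 50.2, 14.6 and 152 CPM and C1qb at 284, 19.5 and 771 CPM. In relapse-free lungs of mice 6, 7, 11 and 29, C1qa was at 71.5, 173, 109 and 271 CPM and C1qb at 262, 1186, 1109.7 and 1315 CPM. C1qc was at 128, 24.3 and 174 CPM against 89.4, 137, 546 and 77.4 CPM. The groups overlapped, and none of the 3 chains was called by edgeR (log2 differences of -1.10 ± 0.71, -1.49 ± 0.61 and -1.14 ± 0.65, adjusted p = 0.929, 0.907 and 0.929), as was the case for all but 0.0407% of 2457 genes. An unadjusted p under 0.05 was reached by 120 genes, C1qb among them, and DESeq2 called 3 genes, no chain among them. The study's text also speaks of photoactivated control lungs, and mice 6 and 7, whose plates include a GFP gate, were kept as relapse-free after their labels, which cannot be checked here. The control plates formed a batch of their own, so that batch and group cannot be told apart. Only C1qb passed the filter on low counts in relapse-free against distal macrophages, at -0.31 ± 0.47 (adjusted p = 0.959). There edgeR called 0% of 469 genes, 45 had an unadjusted p under 0.05, and DESeq2 called 7 genes but not C1qb.

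Monocytes carried little C1q in lungs before metastasis and more in tumors. In Pre-MET lungs of mice 8, 9 and 10, C1qa was 0 in 1359472 monocyte UMIs, C1qb was at 2.44, 0 and 3.78 CPM and C1qc at 0, 0 and 1.89 CPM. In primary tumors of mice 8, 9, 10 and 38, C1qa was at 55.8, 46.1, 146 and 84.0 CPM, C1qb at 236, 127, 281 and 197 CPM and C1qc at 30.4, 12.7, 103 and 66.3 CPM. The groups did not overlap for any chain, but the share of all genes without overlap was not counted. The Pre-MET values rest on 0, 3 and 1 UMIs, at or under the floor of 3 counts, and the 0 of C1qa allows a level of up to 2.21 CPM, so no fold is given. By edgeR 11.7% of 7141 genes were called higher in primary tumors, and the chains were among them. They passed the filter on low counts only through the tumors, where they are high, so that their direction was fixed before the test and the calls add nothing to the values. With the mouse as a replicate block, C1qa and C1qb were called and C1qc did not pass the filter. The 2 groups shared no batch, and lymphocytes moved alongside: in primary tumors they had 22.2 CPM of C1qa, 52.5 of C1qb and 21.0 of C1qc, and in Pre-MET lungs 0 of each. Makeup differed as well: Mon_Fn1 was 532 of 759 Pre-MET monocytes but 54 of 503 in primary tumors, where 228 were Mon_MHC-II and 187 Mon_Thbs1. The part of batch, background and makeup in the monocyte difference was not tested.

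In the other tissues, monocyte C1qb was at most 97.2 CPM in distal normal tissue (median 39.1, n = 14), ran up to 578 CPM in metastasis (median 100.4, n = 13) and up to 1018 CPM in cores (median 235, n = 13), and was between 0 and 73.3 CPM in margins (median 28.9, n = 6). Primary tumor and core monocytes did not differ detectably in C1qb (-0.40 ± 0.61, adjusted p = 0.851 by edgeR, where 1.47% of 1835 genes were called), and the value was 2.12 with batch as a term. In Mon_Thbs1 the log2 difference was -1.25 ± 0.54 (adjusted p = 0.264, where 1.24% of 2345 genes were called), and 2.32 with batch as a term. Neither value with batch as a term was called. Only batch SB128 held both tissues, with monocyte C1qb at 236 CPM in the tumor of mouse 8 and 75.2 and 0 CPM in the cores of mice 36 and 37. The fits with batch rest on these few samples, so they cannot decide the direction. C1qa and C1qc did not pass the filter in these fits. In core against margin monocytes, C1qb passed the filter on low counts only through the cores, where it is high. Its direction was thus fixed before the test, so no fold is given. EdgeR did not call C1qb (adjusted p = 0.123) and called 0% of 1025 genes, with 84 at an unadjusted p under 0.05. DESeq2 called 12 genes, C1qb not among them. By batch, 6 cores of SB118 averaged 542 CPM and 2 margins 24.2 CPM, and the core was also higher in SB112 (185 against 37.5 CPM, 1 sample each) and SB128 (37.6 against 10.9 CPM, 2 samples and 1). In SB124, 3 cores averaged 16.6 CPM and 2 margins 46.9 CPM, but these means came mostly from different mice. In each of the 5 mice that gave both tissues the core was higher, at 185 against 37.5 CPM in mouse 17, 1018 against 48.5 in mouse 26, 263 against 0 in mouse 28, 49.7 against 20.4 in mouse 31 and 75.2 against 10.9 in mouse 36. The margins of mice 26, 28, 31 and 36 held 3 C1qb UMIs or fewer, so these levels were at the floor. The core of mouse 31 was at the floor as well, with 2 C1qb UMIs against 1 in its margin. The exact two-sided permutation test of the 5 pairs gave p = 0.0625 for C1qb, the smallest it can give. By the same test p was 0.125 for C1qa, with the core higher in 4 mice and lower in 0. Mouse 31 had 0 C1qa UMIs in both tissues, which makes 0.125 the smallest p this test can give for C1qa. All 6 margin sums were at the floor for C1qa, and the core of mouse 36 held 2 C1qa UMIs. The core of mouse 28 (15.8 CPM) lay below the floor of its margin (77.5 CPM). For C1qc it was 0.5625, with the core higher in 4 mice and lower in 1, mouse 36 (33.4 against 120 CPM). With the mouse as a replicate block edgeR called 58 genes, but no chain passed the filter on low counts in that fit. Without a filter in the unblocked fit C1qb was called (adjusted p = 0.00022), with 5 of 6 margin sums at the floor. The cells also sat in different labels, Mon_Thbs1 being 408 of 727 monocytes in cores and Mon_Fn1 263 of 376 in margins, and the part of this was not tested.

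DC levels were low and uneven. C1qb averaged 102 ± 166 CPM in primary tumors (n = 4), 230.3 ± 413 in metastasis (n = 10), 188 ± 225 in relapse-free lung (n = 5) and 51.8 ± 41.2 in cores (n = 7), and it was 0 in all 3 control lungs. Apart from the cores, 1 mouse set much of each mean, and the order changed without it. The mean was 19.0 CPM in primary tumors without mouse 38, below that of the cores, 108 CPM in metastasis without mouse 26 and 89.2 CPM in relapse-free lung without mouse 11. No chain passed the filter on low counts in any DC fit, so none was tested.

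Whether macrophages moved more than monocytes of the same samples was tested on the difference of log2(CPM + 10) between the cell types. In primary tumors the C1qc difference was 5.73 ± 0.84 (SD, n = 4) and in cores 3.24 ± 1.55 (n = 10), a gap of 2.49 with an exact two-sided permutation p of 0.0140, which became 0.126 after adjustment over 9 such tests. The gaps for C1qa (1.74, exact permutation p = 0.131) and C1qb (1.57, exact permutation p = 0.153) did not pass either. These calls depend on the pseudocount, since with 50 CPM in place of 10 the gaps of C1qa (2.37) and C1qc (2.40) passed, each at an adjusted exact permutation p of 0.0495, and with 1 CPM none did. Distal tissue against metastasis, in 5 mice with both, and core against margin, in 2 mice with both, cannot reach an exact p below 0.0625 and 0.5.

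The ratio of the chains differed between sequencing batches. Ratios of C1qb to C1qa UMIs were taken in macrophage samples with at least 30 C1q UMIs and more than 3 of C1qa. They were 1.46 to 1.74 in the 3 samples of SB132 and 1.67 to 2.45 in the 7 samples of SB124, but 2.42 to 13.8 in the 12 samples of SB118 and 4.30 to 6.07 in the 2 of SB123. The 13.8 was 55 C1qb over 4 C1qa UMIs, while the samples of SB132 held 1632 to 3061 C1qa UMIs. Samples with fewer C1qa UMIs were left out, such as the distal tissue of mouse 28 in SB118, with 33 C1qb UMIs and 1 of C1qa. The ranges of SB132 and SB118 did not overlap. Among cores, that of mouse 31 in SB124 had a ratio of 1.67, those of mice 36 and 37 in SB128 had 1.90 and 4.59, and 5 cores in SB118 had 7.05 to 13.8, on 4 to 42 C1qa UMIs. SB128, which held 6 tissues, ran from 1.02 to 5.67. Ratios of this kind compare UMIs of captured 3′ ends and not all mRNA molecules of the cells, and the part of batch in them was not tested against that of tissue.

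**Figure D4:**
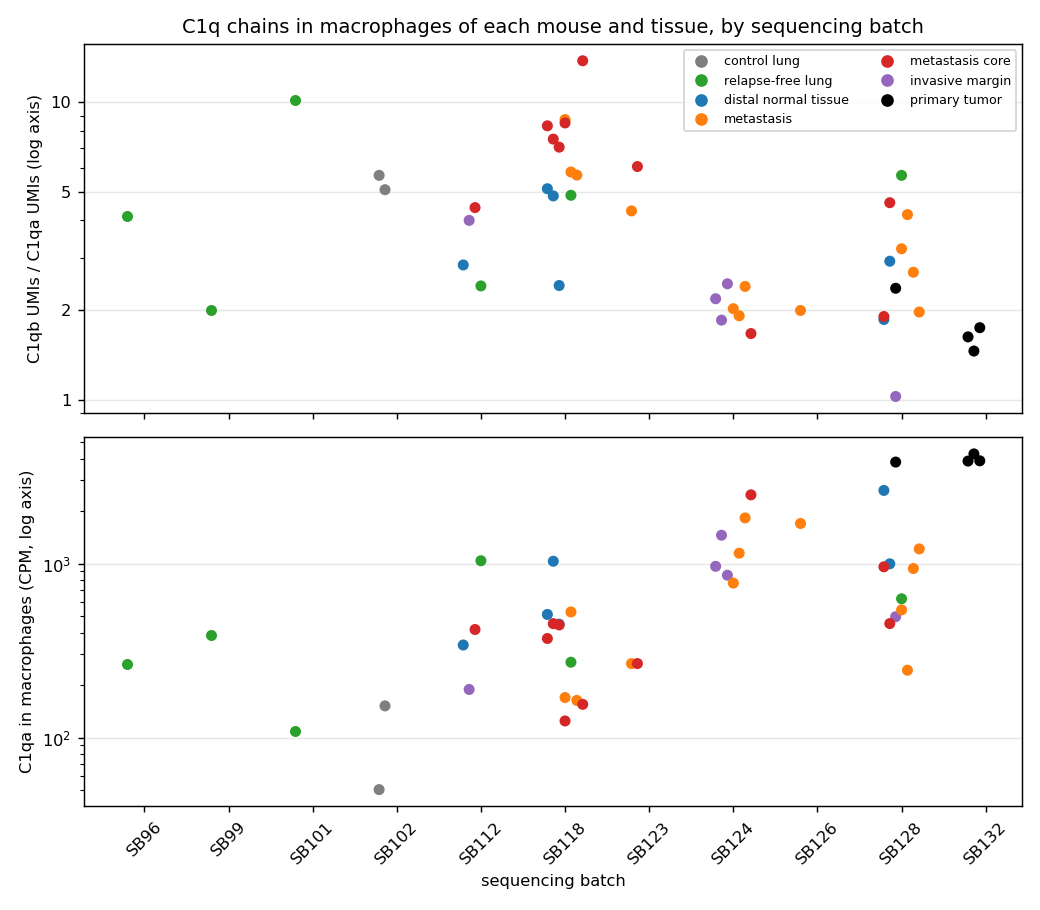
Ratio of C1qb to C1qa UMIs, and C1qa CPM, in macrophages of each sample by sequencing batch, coloured by tissue. Samples have at least 30 C1q UMIs and more than 3 of C1qa. Among them, ratios in SB118 reach 13.8, on 4 C1qa UMIs, whereas the 7 samples of SB124 stay between 1.67 and 2.45.

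C1q is of use to the classical pathway only with its partners, so the other complement genes were read from a list of 48. The C1 proteases were scarce: C1s1 was at 0.414 CPM in Mac_Cd81 (1 UMI), and C1ra was at 10.8 CPM in Mac_Cd81 and 20.7 in Mac_Cd9. C4b, a substrate of C1s, was at 39.8 CPM in Mac_Cd81 (96 UMIs) and at most 5.96 CPM in the other macrophage and monocyte labels. Fcna, a recognition molecule of the lectin pathway, was at 45.2 CPM in Mac_Cd81, 8.95 in Mac_Gpnmb and 0 in Mac_Cd9. C3ar1, the receptor for the C3a fragment, was at 849 CPM in Mac_Cd81, 632 in Mac_Gpnmb, 729.5 in Mac_Isg20 and 2.71 in Mac_Cd9. Cfp, which encodes properdin of the alternative pathway, was at 722 CPM in Mac_Cd81 and 859 in cDC2. C3 itself was highest in Mon_Fn1 at 460.3 CPM, against 124 in Mac_Cd81. These levels are pooled over cells of a label and were not tested.

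In primary tumor against core macrophages, 0 of 11 complement genes tested were called by edgeR, beside 1.67% of all genes higher in primary tumors and 2.87% higher in cores, with a median log2 difference of 0.26 where all genes had 0.01. Within Mac_Cd81, 1 of 11 was called, beside 5.63% of all genes higher in primary tumors: C3ar1, at 1.76 ± 0.54 (adjusted p = 0.0496). In distal tissue against metastasis, 1 of 8 was called, beside 6.9% of all genes higher in metastasis: Itgam, a chain of complement receptor 3, at -2.12 ± 0.65 (adjusted p = 0.0369). Of 25 macrophage genes, 21 were tested in primary tumor against core macrophages, of which 5 were higher in primary tumors and 2 in cores, beside the same 1.67% and 2.87% of all genes. Cd81 (2.59), Selenop (2.30), which encodes a selenium carrier, and the mannose receptor gene Mrc1 (2.30) were higher in primary tumors, and Gpnmb (-5.57) and Spp1 (-2.49), the osteopontin gene, in cores. Gpnmb averaged 13.1 CPM in primary tumors and passed the filter on low counts only through the cores, so its direction was fixed before the test. In Mac_Cd81, 8 of 20 were higher in primary tumors and 0 in cores, beside 5.63% and 2.62% of all genes, led by Selenop, Mrc1, Adgre1 (3.55), the F4/80 gene, Apoe (3.49) and Ms4a7 (2.89). Selenop and Mrc1 averaged only 33.0 and 57.3 CPM in these cores, which held 60438 UMIs in all. They passed the filter on low counts only through the primary tumors, so their direction was fixed before the test and no fold is given. These Mac_Cd81 groups also shared no sequencing batch and differed in depth, as given above. The median of the list was 1.52 there, against 0.31 over all genes. In distal tissue against metastasis, Mrc1 (1.91) and Selenop (1.49) were the 2 of 20 higher in distal macrophages (2.64% of all genes), while 4 of 20 were higher in metastasis (6.9% of all genes), among them Pf4 (-2.63), Maf (-2.52) and Gpnmb (-1.91). Pf4, Maf, Gpnmb and Itgam averaged 121, 39.0, 299 and 52.0 CPM in the distal sums. The distal sums alone would not have brought them past the filter on low counts, so their calls add little to the values.

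The genes whose levels ran most like C1q were sought by Spearman correlation to the mean log2(CPM + 10) of the chains over 172 sums of 10 or more cells and 20000 or more UMIs, which share mice, batches and depth, so the values are a description. Of 10679 genes, C3ar1 came first (0.80), then Ms4a7, Sdc4, Ccl7, Mmp14, Mmp12, Ccl12, Lgmn, Adam8 and Pf4, with 0.66 for the last. Over the 42 macrophage sums alone the nearest were Cd74 (0.80), Lgmn (0.79), Cxcl16 (0.77), Ly86 (0.77) and Ctsh (0.75). The chains themselves correlated at 0.83 (C1qa and C1qb), 0.81 (C1qa and C1qc) and 0.78 (C1qb and C1qc) over the 172 sums, and at 0.90, 0.97 and 0.91 over the 42. So C1qa and C1qc ran closest together in macrophages, and C1qb stood somewhat apart.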

How the data were processed

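Immune cells were sorted singly into plates and sequenced by SPID-seq, a plate-based method that counts 3′ ends of mRNA with UMIs. The authors deposited raw UMI counts of every gene and well for each plate, without normalization, and an annotation of wells with mouse, tissue, batch and cell label. According to their Methods, reads were mapped to mm10 with HISAT and reads with several mapping positions were dropped. The submitters' processing notes name bcl2fastq 2.15.0.4. Every annotated cell held at least 500 UMIs. The version of the gene annotation used in counting is not given in the sources used here. Deposited labels were used as they stand, 595 wells labelled erythrocyte, outlier or tumor and 128 without annotation (with 500 or more UMIs) were left out, and doublets were not called again, since the sort excluded them per the labels.

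Counts of the cells of 1 mouse, tissue and lineage or label were summed where at least 10 cells were present. Sums held from 8766 UMIs (DC) to 1107442 UMIs (monocytes), and a level based on 3 counts or fewer is at its floor. Contrasts with 3 or more sums per group were fitted with edgeR 4.0.16 by the quasi-likelihood test, with TMM scaling, genes kept by its filterByExpr, p-values adjusted over all genes by Benjamini-Hochberg and calls made at 0.05, in R 4.3.3, with limma 3.58.1 installed. The alternatives were DESeq2 1.42.0, relative log expression size factors, no filter on low counts, minima of 5 and 20 cells, cells of 1000 or more UMIs, the mouse as a replicate block, relapse-free lung without the plates gated on GFP, pseudocounts of 1 and 50 CPM, and leaving out each mouse of groups of 3 to 5. Fits with sequencing batch as a term, some that leave out a mouse, and mean levels by label or tissue without the highest sum, and core against margin within mice, were added after the data were seen. The scripts were tested on simulated counts. Python 3.11.15 with numpy 2.4.6, pandas 2.3.3, scipy 1.17.1 and matplotlib 3.10.9 was used for the rest.

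Tissues of 1 mouse are paired by the animal. Their deviations from the group means correlated at 0.06 to 0.24 in macrophages of the 5 mice with distal tissue and metastasis, at 0.08 to 0.68 in monocytes of 13 such mice, at 0.06 to 0.65 in monocytes of 5 mice with core and margin, and at 0.01 to 0.04 in monocytes of the 3 mice with Pre-MET lung and primary tumor. The 3 genes, the lists of 48 complement and 25 macrophage genes and the contrasts were chosen with earlier results of these data known. Besides the members, the genes named are the called genes of each list with the largest changes in a macrophage fit (at most 5), the 10 and 5 nearest by correlation, and complement genes named to describe their level, which were chosen after their values were seen.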

Additional observations from a re-analysis of the deposited data

Results flagged for a closer look

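In 19 of 56 groups of 4 to 10 samples, 1 sample stood apart from the others by Dixon's criterion. Its chance rate of about 1 in 20 groups holds for normal and independent values. Many of these groups hold values near 0 and the chains vary together, so 19 of 56 cannot be read as an excess. Among macrophages, the core of mouse 31 stood apart with 2481 CPM of C1qa (next 957) and 3453 CPM of C1qc (next 919), the distal tissue of mouse 23 with 2604 CPM of C1qb, the relapse-free lung of mouse 11 with 546 CPM of C1qc and the primary tumor of mouse 10 with 4264 CPM of C1qa. By label, C1qc was apart in the metastasis of mouse 33, at 1699.8 CPM in Mac_Gpnmb and 1084 CPM in Mac_Isg20, and C1qb in that of mouse 26, at 2413 CPM in Mac_Isg20. In Mac_Cd9 of relapse-free lung, 9.76 CPM of C1qb (mouse 11) and 6.41 CPM of C1qc (mouse 6) were each 1 UMI against 0 in the others.

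Among DCs, the primary tumor of mouse 38 stood apart for all chains, at 107 CPM of C1qa, 349 of C1qb and 103 of C1qc, against at most 6.28, 40.8 and 12.9 CPM in the other 3 tumors. The relapse-free lung of mouse 11 had 166 CPM of C1qa and 581 of C1qb, the metastasis of mouse 26 had 1328 CPM of C1qb, and the core of mouse 36 had 17.7 CPM of C1qa, which is 1 UMI. Among monocytes, the margin of mouse 33 had 220.0 CPM of C1qa from 3 UMIs, and the relapse-free lung of mouse 7 had 18.4 CPM of C1qc.

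C1q UMIs were also present in wells that no comparison used, above the limit that a count of 0 allows. The 336 wells labelled erythrocyte had 9.97 CPM of C1qa, 52.4 of C1qb and 12.5 of C1qc. The 165 labelled outlier had 156 CPM of C1qa, 939.8 of C1qb and 315 of C1qc. The 94 labelled tumor had 168, 228 and 179 CPM, and the 128 without annotation had 155, 251 and 99.7 CPM. What these wells hold was not tested.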

How the results depend on the processing

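Most counts of called chains were 0 as reported, in many fits because no chain passed the filter, so their staying at 0 says nothing of stability. In primary tumor against core macrophages, 0 chains were called with batch as a term (added after the data were seen), and in Mac_Cd81 1 was called with a minimum of 5 cells. In distal tissue against metastasis macrophages, 1 chain called as reported became 0 with relative log expression size factors, with the mouse as a replicate block and with batch as a term, and 3 without the filter on low counts. Without that filter, 3 were called in the monocytes of that contrast and 1 in core against margin monocytes, both from 0. The block changed no other call on a tested chain. The cause of these changes was not tested.

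Values that changed sign had none past the threshold. With batch as a term, C1qb of primary tumor against core was at 2.12 in monocytes and 2.32 in Mon_Thbs1, and core against margin macrophages were at 0.89 for C1qa and 0.97 for C1qc. C1qc of the latter was at 0.0049 with 5 cells and 0.0044 with 1000 UMIs, and leaving out a mouse gave -0.67 to 0.15 for C1qa and -0.57 to 0.27 for C1qc. C1qb of relapse-free against distal macrophages was at 0.21 without the filter, 0.18 with 5 cells and -0.39 to 0.089 when leaving out a mouse. In Mac_Gpnmb, core against margin, C1qb was at -0.057 without the filter, the chains were at -0.48, -0.12 and -0.18 with 5 cells, and leaving out a mouse gave -1.45 to 0.80, -0.36 to 0.59 and -1.30 to 0.95. With a pseudocount of 50 CPM, the macrophage minus monocyte gaps of primary tumor against core rose to 2.37 for C1qa and 2.40 for C1qc (adjusted exact permutation p = 0.0495 each), those of distal tissue against metastasis turned to -0.16 for C1qa and -0.21 for C1qc, and those of core against margin to 0.58 for C1qa and 0.26 for C1qb. Depth limits monocytes and DCs most, where many sums hold 3 C1q UMIs or fewer.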

Other observations

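Lymphocytes with a C1q UMI were not equally frequent in all tissues. After thinning each cell to 500 UMIs, at least 1 chain was seen in 25 of 404 T cells (6.19%) and 17 of 196 B cells (8.67%) of primary tumors, but in 3 of 818 T cells (0.367%) and 0 of 203 B cells of control lungs, which allows a share of up to 1.48%. In metastasis cores the share was 22 of 1220 T cells (1.80%). In metastasis it was 6 of 668 (0.898%), and in relapse-free lung 24 of 2130 (1.13%). No cause of these UMIs was tested.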
